A study of Homo sapiens with 8 samples.

Results

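Polyamine metabolism in LNCaP prostate cancer cells was followed through 10 genes, taken by gene name from the 36474 genes of the count table and not by their counts. They comprised ODC1, AMD1, SRM, SMS and ARG2 for synthesis, SAT1 and SMOX for breakdown, and OAZ1, OAZ2 and AZIN1 for the antizyme system that controls ornithine decarboxylase. All 10 were among the 21071 genes with enough counts to test. LNCaP is an established line from a human prostate carcinoma metastasis. Cells were plated in triplicate wells, held without serum and calcium for 6 to 12 h, and given recombinant asporin (ASPN, a secreted stromal matrix protein) at 100 ng/mL. RNA was taken at 0 h (2 libraries), 12 h (3 libraries) and 24 h (3 libraries), and the labels describe the libraries of all 3 times as ASPN-treated LNCaP. Untreated libraries of the later times were not analysed here, so the effect of ASPN and that of longer starvation cannot be told apart in any comparison. The labels call the samples biological replicates of this 1 line. They do not say whether the wells came from separate cultures, so p-values measure the spread between these samples, which may be partly technical.

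Polyamines (putrescine, spermidine and spermine) are small positively charged molecules that bind nucleic acids and are needed for growth, and the prostate is known for making and secreting large amounts of them. Ornithine decarboxylase (ODC1) makes putrescine from ornithine, and S-adenosylmethionine decarboxylase (AMD1) supplies the aminopropyl groups with which spermidine synthase (SRM) and spermine synthase (SMS) build the longer polyamines. Spermidine/spermine N1-acetyltransferase (SAT1) acetylates polyamines for export or oxidation and spermine oxidase (SMOX) converts spermine back to spermidine, whereas antizymes (OAZ1 and OAZ2) bind ornithine decarboxylase and send it to the proteasome, and the antizyme inhibitor (AZIN1) sequesters antizymes. Many of these proteins are controlled by translation and degradation, which transcript counts do not measure.

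The 8 libraries held 73406825 to 96962135 counts. All 9 markers of the prostate luminal line were present, among them KLK3 at 912 to 1390 CPM (counts scaled to library size) and FOLH1 at 1660 to 1980 CPM, and their sum was 4725 to 4844 CPM at 0 h, 5285 to 5327 CPM at 12 h and 5277 to 5469 CPM at 24 h. Markers of basal, stromal, endothelial, immune and neuroendocrine cells, 12 of 14 of which were in the table, summed to 39.3 to 41.3 CPM at 0 h, 37.8 to 40.3 CPM at 12 h and 33.3 to 35.9 CPM at 24 h, mostly COL1A1 and VWF. TP63, DCN, PECAM1, PTPRC, CHGA and ASPN itself had at most 9 counts in any library. The part of these shifts in the results below was not tested. In bulk RNA, fewer cells of a type and less RNA per cell cannot be told apart.

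Of the 10 polyamine genes, the breakdown enzymes SAT1 and SMOX and the mitochondrial arginase ARG2 had fallen at both 12 h and 24 h, and AMD1 was the only member that rose, past the threshold at 24 h alone. ODC1 and the genes of the antizyme system did not pass in any comparison. A gene passed at an adjusted p of at most 0.05 by edgeR's quasi-likelihood test with Benjamini-Hochberg adjustment over all 21071 genes. At 12 h 3 of 10 members (30%) passed, all lower than at 0 h, against 11.6% of all genes tested (4.85% higher, 6.75% lower). At 24 h 4 of 10 (40%) passed, 1 higher and 3 lower, against 16.3% of all genes (7.82% higher, 8.49% lower). Between 24 h and 12 h 1 of 10 (10%) passed, lower at 24 h, against 2.72% of all genes (1.12% higher, 1.61% lower). All members averaged at least 1112 normalized counts, and well-counted genes passed more often than all genes. In a fit to the 13464 genes averaging at least 100, 2626 passed at 12 h and 3534 at 24 h, with 4 members among them each time. No member reached a 1.5-fold change in any comparison, a size that 1.05%, 2.45% and 0.18% of all genes reached together with the adjusted p at 12 h, 24 h and between the later times. Libraries of the compared groups did not overlap for 5, 5 and 4 members, where this held for 36.9%, 43.2% and 19.6% of all genes. The median log2 change of the members was 0.006 at 12 h and -0.0062 at 24 h, against -0.00069 and -0.0031 over all genes. Both comparisons with 0 h use the same pair of 0 h libraries.

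**Figure D1:**
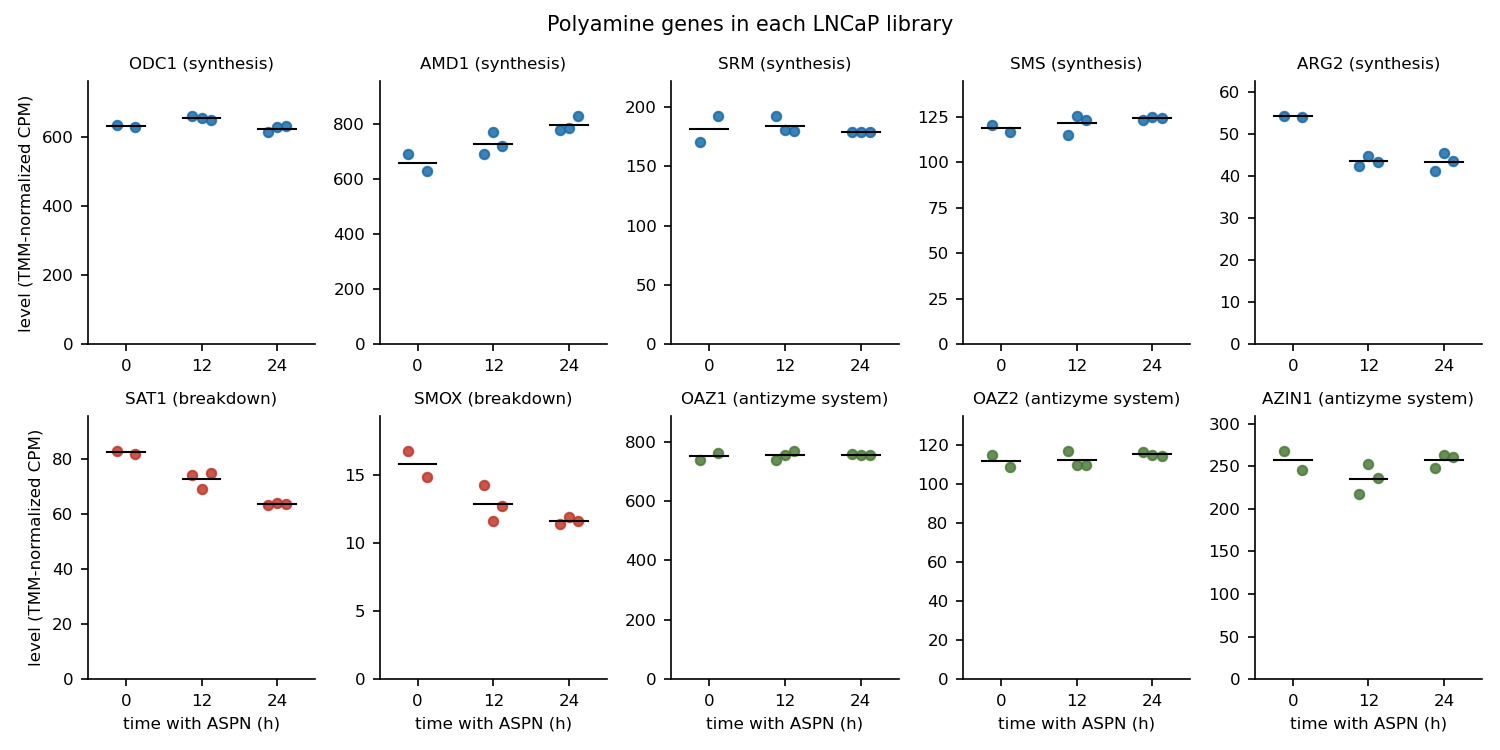
Level of each polyamine gene in each library (TMM-normalized CPM, vertical axis from 0) against hours with ASPN; points are libraries (2 at 0 h, 3 at 12 h, 3 at 24 h), lines are group means, and colors mark synthesis (blue), breakdown (red) and the antizyme system (green). SAT1 steps down from 81.99 to 83.14 CPM at 0 h to 63.26 to 63.95 CPM at 24 h and AMD1 steps up, whereas OAZ1 stays between 737.4 and 769.9 CPM.

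SAT1 (ENSG00000130066.17, GRCh38 chromosome X, 23783173 to 23786210, plus strand) encodes the rate-limiting enzyme of polyamine catabolism. Its level was 83.14 and 81.99 CPM in the 0 h libraries, 74.29, 69.31 and 75 CPM at 12 h, and 63.26, 63.95 and 63.74 CPM at 24 h. All later libraries lay below both 0 h libraries, and all 24 h libraries lay below all 12 h libraries. The log2 change was -0.18 (SE 0.049, adjusted p 0.0134) at 12 h and -0.38 (SE 0.049, adjusted p 9.92e-07) at 24 h, by edgeR's quasi-likelihood test. SAT1 was the only member that passed between 12 h and 24 h, with a log2 change of -0.19 (SE 0.044, adjusted p 0.0107). Its mean fell by 22.9% over the whole course. The call at 24 h held under each of 17 alternatives. The call at 12 h was lost in a fit to the 2 time points alone (adjusted p 0.054), with a replicate block by column number (0.0653), without time-0 replicate 1 (0.14) and without 12 h replicate 2 (0.0579). The later call was lost when 12 h replicate 3 was left out (0.0967), and likewise for the first (0.0745), second (0.0573) and last (0.0648) of the 24 h replicates.

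The 250 bases before the annotated start of SAT1 are shown because SAT1 changed at every step (RefSeq promoter window, GRCh38.p14, chrX:23782923-23783172, plus strand, 5′ to 3′). Capitals mark the CCAAT box (CCAAT, or ATTGG on the other strand), whose first bases lie at -79 and -13 from the start.
SAT1: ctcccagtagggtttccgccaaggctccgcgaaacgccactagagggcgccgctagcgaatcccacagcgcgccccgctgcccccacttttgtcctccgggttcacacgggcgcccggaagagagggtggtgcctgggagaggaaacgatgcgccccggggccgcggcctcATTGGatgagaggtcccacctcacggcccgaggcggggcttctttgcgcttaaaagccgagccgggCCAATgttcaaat
Windows from 250 bases before to 50 after each annotated start were searched on both strands for 6 motifs that were picked after the changes were known, and 8 of the 10 members had a window. A gene was counted where any of its windows held the letters, so counts of genes are not directly comparable with shares of windows. CCAAT was found in 34.6% of all 35116 windows and in 6 of the 8 members (AMD1, SRM, SMS, ARG2, SAT1 and OAZ1). No window of SAT1 held the other 5 motifs, which are given with the members below. The composite motif bound by ATF4 and CEBP factors (TGATGNAA) was in 3.62% of all windows and in none of the 8 members.

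SMOX (ENSG00000088826.18, chromosome 20, 4120980 to 4187747, plus strand), which oxidizes spermine and yields hydrogen peroxide, was the least abundant member. It stood at 16.82 and 14.86 CPM at 0 h, 14.26, 11.67 and 12.73 CPM at 12 h, and 11.41, 11.9 and 11.67 CPM at 24 h. No later library reached the lower 0 h library, but the 12 h and 24 h libraries overlapped. Its log2 change was -0.30 (SE 0.085, adjusted p 0.0172) at 12 h and -0.44 (SE 0.085, adjusted p 0.00027) at 24 h by edgeR, a mean 26.5% lower at 24 h. Between 12 h and 24 h the change was -0.14 (95% interval -0.30 to 0.015, adjusted p 0.435). The 12 h call was lost without time-0 replicate 1 (adjusted p 0.401), 12 h replicate 2 (0.0808) or 12 h replicate 3 (0.0547), whereas the 24 h call held under each of 17 alternatives.

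AMD1 (ENSG00000123505.19, chromosome 6, 110874770 to 110898879, plus strand) was the member that rose. Its level was 690.2 and 626.9 CPM at 0 h, 691.3, 769.6 and 719.7 CPM at 12 h, and 776.5, 784.6 and 828.8 CPM at 24 h. The 3 groups did not overlap, although 12 h replicate 1 lay just above time-0 replicate 1. Its log2 change at 24 h was 0.27 (95% interval 0.18 to 0.37, adjusted p 8.38e-05 by edgeR), a 1.21-fold rise that passed under each of 17 alternatives. At 12 h the change was 0.14 (SE 0.048) with an adjusted p of 0.0501, and 9 of 17 alternatives brought it past the threshold, with adjusted p values between 1.14e-05 and 0.361 over all 17. Between 12 h and 24 h it was 0.13 (SE 0.043, adjusted p 0.0986), which passed after correction for GC content and length (adjusted p 0.0441) and without 12 h replicate 2 (0.0159).

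The sequence before AMD1 is shown as that of the only member that rose (RefSeq, GRCh38.p14, chr6:110874535-110874769, plus strand, 5′ to 3′, ending before the gene start in the count table). Capitals mark a GC box (GGGCGG), with its first base at -24 from the RefSeq start at 110874785.
AMD1: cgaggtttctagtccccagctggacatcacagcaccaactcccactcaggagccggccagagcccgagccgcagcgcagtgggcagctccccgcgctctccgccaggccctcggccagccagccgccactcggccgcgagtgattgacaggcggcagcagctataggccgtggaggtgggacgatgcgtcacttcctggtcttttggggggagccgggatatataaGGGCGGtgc
GC boxes were common, in 45% of all windows and in 7 of the 8 members, all but SAT1. A second RefSeq start of AMD1, at 110814617, lies outside the gene range of the table, and of the AMD1 windows only that of this start held a CCAAT box. The gene counts do not separate transcripts by start.

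ODC1 (ENSG00000115758.13, chromosome 2, 10439968 to 10448327, minus strand) encodes the rate-limiting enzyme of putrescine synthesis and a long-known MYC target. It measured 632.7 and 626.9 CPM at 0 h, 660.4, 655.3 and 649.6 CPM at 12 h, and 612.7, 627.4 and 630.3 CPM at 24 h. The 12 h libraries lay above all others, and the 0 h and 24 h libraries overlapped. None of the differences passed the test. The log2 change was 0.057 (95% interval -0.025 to 0.14, adjusted p 0.434) at 12 h, -0.015 (-0.097 to 0.067, adjusted p 0.872) at 24 h, and -0.071 (-0.14 to 0.0019, adjusted p 0.384) from 12 h to 24 h. As a fold change, the 95% interval of ODC1 at 24 h ran from 0.935 to 1.05, in a fit with 2 libraries at 0 h. In the 0 h library without a replicate number, ODC1 and AMD1 happened to have the same count, 45580.

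A stretch of ODC1 around an E-box (CACGTG, the motif bound by MYC and MAX) is shown because ODC1 did not follow AMD1 (RefSeq, GRCh38.p14, chr2:10448024-10448053, minus strand, 5′ to 3′). Capitals mark the E-box, whose first base lies at -29 from the RefSeq start at 10448012, within the gene range of the table.
ODC1: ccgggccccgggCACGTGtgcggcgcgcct
E-boxes of this sequence were in 7.26% of all windows and in 2 of the 8 members, ODC1 and SRM. MYC itself, a gene outside the rule for named genes and looked up after its values were seen, had a log2 change of 0.16 (SE 0.042, adjusted p 0.00933) at 12 h and 0.15 (SE 0.042, adjusted p 0.0118) at 24 h, from 320.3 CPM at 0 h to 358.1 and 355.1 CPM. Its 12 h call was lost in a fit to the 2 time points alone (0.0516) and without time-0 replicate 1 (0.0663), and its 24 h call without time-0 replicate 1 (0.064) or 24 h replicate 3 (0.0608).

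SRM and SMS, which add the aminopropyl groups, did not pass in any comparison. SRM (ENSG00000116649.10, chromosome 1, 11054584 to 11060020, minus strand) measured 170.5 and 192.6 CPM at 0 h, 192.5, 180.5 and 179.4 CPM at 12 h, and 178.7, 178.9 and 178.5 CPM at 24 h. The 0 h libraries were the farthest apart and spanned the 24 h libraries, and the 24 h libraries lay just below those at 12 h. Its log2 change at 24 h was -0.023 (95% interval -0.12 to 0.077, adjusted p 0.831), and it became -0.13 with an adjusted p of 0.00521 after correction for GC content and length. SMS (ENSG00000102172.16, chromosome X, 21940709 to 21994837, plus strand) measured 120.6 and 116.8 CPM at 0 h, 115.1, 125.5 and 123.3 CPM at 12 h, and 123.1, 124.8 and 124.3 CPM at 24 h. All 24 h libraries of SMS lay above both 0 h libraries, by a log2 change of 0.064 (95% interval -0.033 to 0.16, adjusted p 0.43), which was 0.10 with an adjusted p of 0.0464 after the same correction. A processed pseudogene 98.4% identical to SMS over 64.5% of its transcript held 381 counts over all libraries, or 0.463% of those of SMS, and the next most similar copy (97.1% identical) held 51 counts. How many reads of SMS were affected by these copies was not tested.

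ARG2 (ENSG00000081181.8, chromosome 14, 67619920 to 67651708, plus strand) encodes the mitochondrial arginase, which makes ornithine from arginine. It measured 54.44 and 54.13 CPM at 0 h, 42.55, 44.94 and 43.53 CPM at 12 h, and 41.27, 45.46 and 43.69 CPM at 24 h. All 6 later libraries lay below both 0 h libraries, and the 12 h and 24 h libraries overlapped. The log2 change was -0.31 (SE 0.055, adjusted p 0.000165) at 12 h and -0.32 (SE 0.055, adjusted p 5.72e-05) at 24 h by edgeR, and both calls held under each of 17 alternatives. From 12 h to 24 h it was -0.0066 (95% interval -0.11 to 0.094, adjusted p 0.977). ARG2 shares 39.6% of its exon bases (904 bases) with VTI1B on the other strand, and the strand setting of the counting was not stated, so part of its counts could belong to VTI1B. VTI1B stood at 103.2, 100 and 105.7 CPM at the 3 times and did not pass at 12 h (log2 change -0.046, adjusted p 0.649) or 24 h (0.033, adjusted p 0.739).

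The 250 bases before ARG2 are shown because it was the only member with a cyclic AMP response element (CRE, TGACGTCA) in its window (RefSeq, GRCh38.p14, chr14:67619670-67619919, plus strand, 5′ to 3′). Capitals mark the CREs at -172 and -64, the CCAAT boxes at -236 and -76, and the GC boxes at -133, -87, -54, -50 and -14, of which those at -54 and -50 overlap.
ARG2: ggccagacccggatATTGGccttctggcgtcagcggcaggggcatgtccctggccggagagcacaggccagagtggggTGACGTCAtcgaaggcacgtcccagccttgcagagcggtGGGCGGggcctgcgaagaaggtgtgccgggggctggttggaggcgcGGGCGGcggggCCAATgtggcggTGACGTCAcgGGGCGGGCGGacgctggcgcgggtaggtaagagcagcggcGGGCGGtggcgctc
CREs were found in 1.85% of all windows. CRE is the motif of CREB and ATF family factors, and the values of ATF3 are given with the other pathway genes.

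The antizyme system showed no change past the threshold at either time. OAZ1 (ENSG00000104904.12, chromosome 19, 2269509 to 2273490, plus strand), the main antizyme, measured 737.4 and 763.4 CPM at 0 h, 739.4, 755 and 769.9 CPM at 12 h, and 757.9, 754.5 and 755.3 CPM at 24 h. The libraries of all 3 groups overlapped, and its log2 change at 24 h was 0.011 (95% interval -0.072 to 0.093, adjusted p 0.911). OAZ2 (ENSG00000180304.14, chromosome 15, 64687573 to 64703281, minus strand), a second broadly expressed antizyme, measured 114.9 and 108.3 CPM at 0 h, 116.9, 109.4 and 109.5 CPM at 12 h, and 116.4, 114.7 and 114 CPM at 24 h. Its groups overlapped as well, with a log2 change at 24 h of 0.043 (95% interval -0.054 to 0.14, adjusted p 0.63). OAZ2 was the only member with an AP-1 site (TGANTCA, in 7.71% of all windows) in its promoter window. Antizyme protein is made by a polyamine-dependent ribosomal frameshift, which these counts do not show.

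AZIN1 (ENSG00000155096.15, chromosome 8, 102826111 to 102893864, minus strand), the antizyme inhibitor, measured 268.3 and 245.9 CPM at 0 h, 217.5, 252.5 and 236.5 CPM at 12 h, and 247.7, 263.6 and 261.3 CPM at 24 h. The 12 h group had the lowest and most scattered libraries and overlapped with both other groups. Its log2 change was -0.13 (SE 0.052, adjusted p 0.118) at 12 h, 0.0022 (95% interval -0.10 to 0.11, adjusted p 0.986) at 24 h, and 0.13 (SE 0.046, adjusted p 0.153) from 12 h to 24 h. Without 12 h replicate 2, the highest of its group, the dip at 12 h passed with a log2 change of -0.18 (adjusted p 0.0158) and so did the difference between 24 h and 12 h (0.18, adjusted p 0.0211).

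By role, 2 of 2 breakdown members fell at 12 h and at 24 h, with median log2 changes of -0.24 and -0.41. Of all genes tested, 6.75% and 8.49% were called lower. Outside the members, the breakdown genes PAOX (0.31 at 12 h and 0.29 at 24 h) and SAT2 (0.024 and -0.087) did not pass. Over all genes, 11.6% were called at 12 h and 16.3% at 24 h in either direction. Of the 5 synthesis genes, 1 (ARG2) fell and 4 did not pass at 12 h (median 0.032), whereas at 24 h 1 (AMD1) rose, 1 (ARG2) fell and 3 did not pass (median -0.015). None of the 3 antizyme genes passed at 12 h (median 0.0036) or 24 h (median 0.011), and from 12 h to 24 h only SAT1 of the breakdown genes passed (2.72% of all genes).

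**Figure D2:**
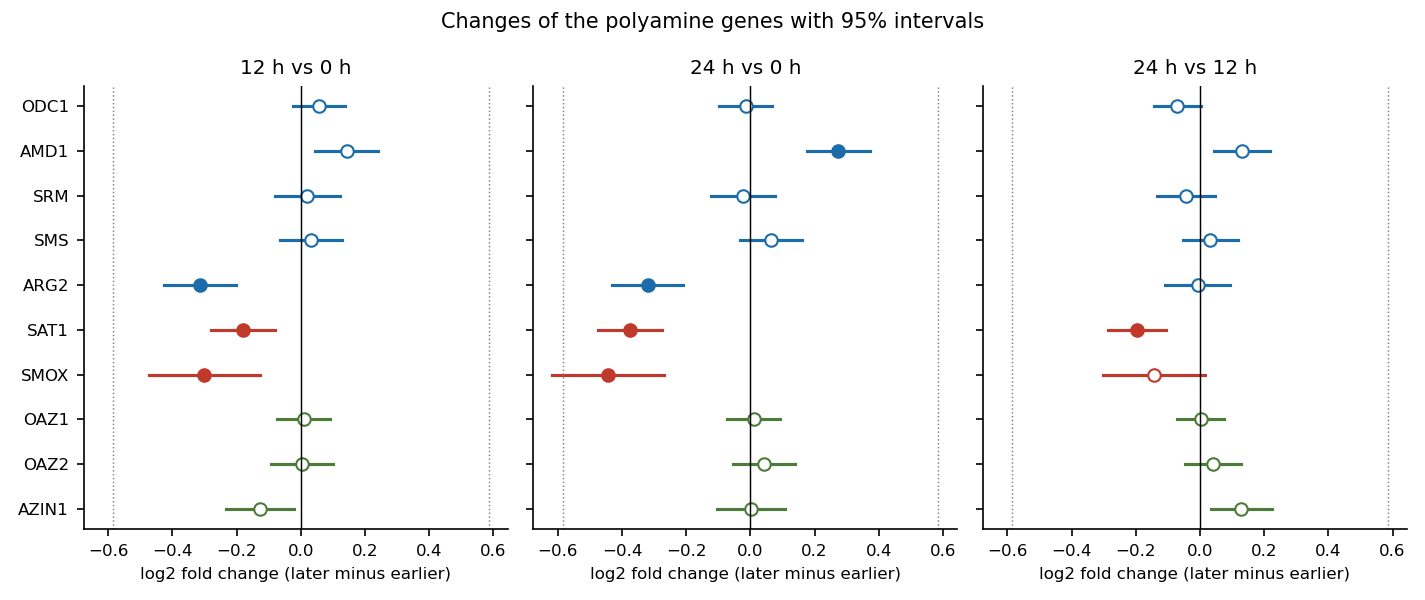
Log2 fold change of each polyamine gene (later minus earlier time, horizontal axis) with its 95% interval in 3 comparisons from the edgeR fit; filled points passed an adjusted p of 0.05, dotted lines mark 1.5-fold, and colors mark synthesis (blue), breakdown (red) and the antizyme system (green). ARG2, SAT1 and SMOX are filled and left of 0 at 12 h and 24 h, AMD1 is filled and right of 0 at 24 h (0.27), and the interval of SMOX at 24 h is the only one to cross a dotted line.

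Ratios of counts within a library need no scaling between libraries, and they are given for pairs of members picked with their changes known. The ratio of AMD1 to SAT1 counts was 8.3 and 7.65 at 0 h, 9.31, 11.1 and 9.6 at 12 h, and 12.27, 12.27 and 13 at 24 h. Means were 7.97, 10 and 12.5, and no libraries of different times overlapped. ODC1 to SAT1 likewise went from 7.61 and 7.65 at 0 h to 8.89, 9.46 and 8.66 at 12 h and 9.69, 9.81 and 9.89 at 24 h, again without overlap. These ratios rest on the same counts as the changes above and were given no test. ARG2 to SAT1, a pair whose members both fell, had mean ratios of 0.658 at 0 h, 0.601 at 12 h and 0.683 at 24 h. Its 0 h and 24 h libraries overlapped, and all 12 h libraries lay below them. SMS to SMOX, the enzymes that make and oxidize spermine, had mean ratios of 7.52 at 0 h, 9.5 at 12 h and 10.6 at 24 h, with both later groups above 0 h and overlapping each other. ODC1 to OAZ1, the enzyme and its main inhibitor, stayed between 0.808 and 0.893 in all libraries. Its 0 h libraries (0.858 and 0.821) overlapped with both later groups, but all 12 h libraries lay above all 24 h libraries. The ratio of ODC1 to AZIN1 was 2.45 at 0 h, 2.79 at 12 h and 2.42 at 24 h on average, with all 12 h libraries above those of the other times.

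**Figure D3:**
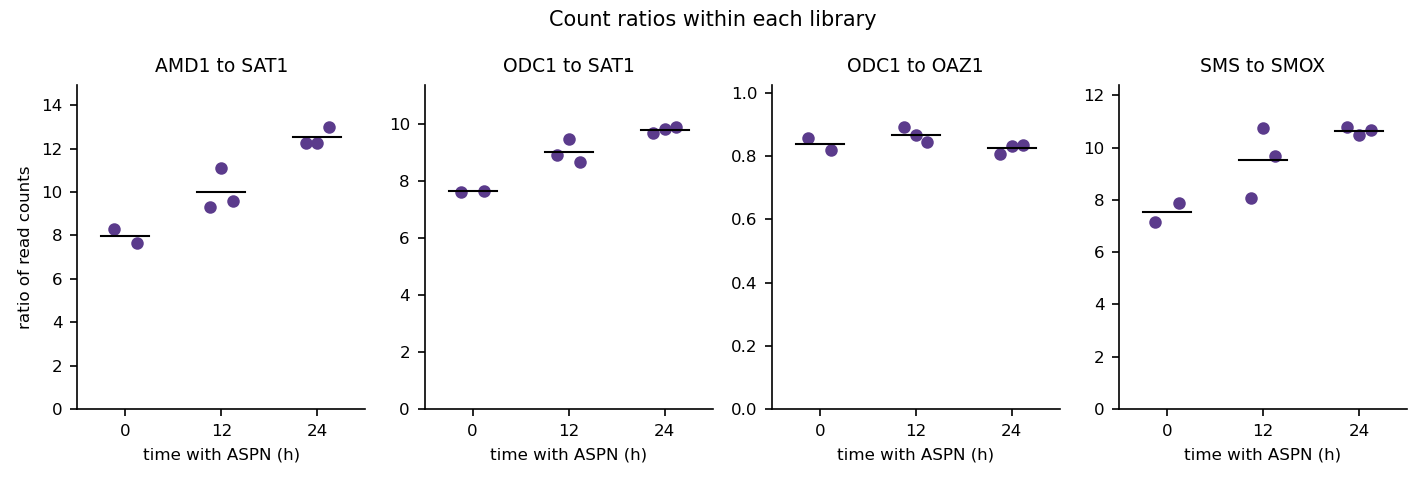
Ratio of read counts between pairs of polyamine genes in each library (vertical axis from 0, no unit) against hours with ASPN; points are libraries and lines are group means. AMD1 to SAT1 climbs from a mean of 7.97 to 12.5 without overlap between times, whereas ODC1 to OAZ1 stays between 0.808 and 0.893.

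Levels of different genes were compared per kilobase of merged exons (CPM per kb). At 0 h OAZ1 was highest with a mean of 218.4 CPM per kb, followed by ODC1 (190.4), SRM (95.9), AMD1 (64.6), SMS (55.7), AZIN1 (41.9), SAT1 (33.3), ARG2 (23.8), OAZ2 (14.6) and SMOX (5.38). The order was the same at 12 h and 24 h, and no neighbours in it overlapped between libraries of one time. At 24 h AMD1 had come to 78.2 and SAT1 to 25.7 CPM per kb. The order depends on the length used, since SAT1 moved from place 7 to place 5, with 72.8 CPM per kb, when the longest transcript replaced the merged exons. By merged exons, SMOX stood below all 5 synthesis genes and SAT1 below all of them except ARG2.

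Across the 8 libraries SAT1 and SMOX varied together (Pearson r of log2 CPM 0.915), AMD1 and SMS had an r of 0.81, and AMD1 and SAT1 had an r of -0.906. These values share the same 3 time groups and libraries and describe them only. Of 12674 well-counted genes, those most like SAT1 over the 8 libraries were TRIB3 (r 0.993), DDIT3 (r 0.992) and AARS1 (r 0.990), and 436 genes had an r above 0.9. TRIB3 and DDIT3 are known stress-response genes downstream of ATF4 and AARS1 encodes a transfer RNA synthetase. Between 0 h and 24 h TRIB3 went from 434.6 to 250.2 CPM, DDIT3 from 78.8 to 39.5 CPM and AARS1 from 986.4 to 819.7 CPM. For ODC1 the most alike were MIDEAS (r 0.960), CANT1 (r 0.955) and DYRK4 (r 0.946), with 16 genes above 0.9, and each differed by less than 0.1 in log2 between 0 h and 24 h.

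Of 75 other genes of the pathway, in 6 lists, 65 were tested. At 12 h 17 passed (7 higher, 10 lower; 26.2%), at 24 h 17 (7 higher, 10 lower; 26.2%) and between the later times 5 (2 higher, 3 lower; 7.69%), beside the 11.6%, 16.3% and 2.72% of all genes given above. The shares of all genes are not matched for count level, and well-counted genes passed more often, as given with the members. Most listed genes were well counted. The 58 plotted below averaged 100 or more normalized counts, and 16 of them passed at 24 h. Whether these genes, or any list below, passed more often than genes of similar counts was not tested. Being unmatched, the shares of all genes printed beside the members and the lists do not measure enrichment. Median log2 changes over the 65 were -0.0056, -0.011 and -0.015. Without time-0 replicate 1, which leaves 1 library at 0 h, fewer of these genes passed at 12 h and 24 h, and fewer of all genes passed as well. Between the later times the counts ran from 0 to 7 as each library was left out. The remaining genes of synthesis, breakdown and the antizyme system (6 tested, among them SAT2, PAOX and AZIN2) and the 4 genes of hypusination, which uses spermidine to modify the translation factor EIF5A, had no member past the threshold in any comparison.

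In polyamine transport, 2 of 11 tested genes (18.2%) passed in each comparison, beside 11.6% of all genes at 12 h, 16.3% at 24 h and 2.72% between the later times, and they moved in opposite directions. SLC3A2, the heavy chain of amino acid transporters that has also been linked to polyamine export, stood at 337.1 and 333.7 CPM at 0 h, 266.6, 249.7 and 264.9 CPM at 12 h, and 222.8, 242.1 and 225 CPM at 24 h. No libraries of different times overlapped, and the log2 change was -0.37 at 12 h (adjusted p 1.47e-06) and -0.54 at 24 h (adjusted p 1.99e-10). GPC1, a heparan sulfate proteoglycan with a known part in polyamine uptake, stood at 26.5 and 28 CPM at 0 h, 32.5, 30.7 and 29.8 CPM at 12 h, and 35.5, 37.7 and 35.9 CPM at 24 h. It rose without overlap between times, with log2 changes of 0.19 (adjusted p 0.0448) and 0.42 (adjusted p 6.25e-06). The 12 h call of GPC1 was lost under 9 of 17 alternatives, and its log2 change there was 0.042 after correction for GC content and length. The P5B ATPases of polyamine import that could be tested, ATP13A2 and ATP13A3, had log2 changes at 24 h of 0.041 and 0.12 and did not pass.

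The methionine and methylthioadenosine cycle supplies the substrate of AMD1 and recovers methylthioadenosine, the by-product of SRM and SMS. Of its 15 tested genes 4 (26.7%) passed at 12 h and 4 (26.7%) at 24 h, each time 1 higher and 3 lower. Over all genes the shares were 11.6% at 12 h and 16.3% at 24 h. GOT1, an aminotransferase that can complete the salvage of methionine, fell from a mean of 145.5 CPM to 113.2 CPM and then 102 CPM (log2 changes -0.36 and -0.51, adjusted p 2.18e-06 and 1.03e-09). MRI1, a salvage isomerase, rose by 0.39 and 0.32 on the log2 scale (adjusted p 0.00612 and 0.0176), and APIP, the next enzyme of the salvage route, fell by 0.24 and 0.23 (adjusted p 0.0259 and 0.031). A noncoding gene on the opposite strand covers 31.1% of the exon bases of MRI1. Neither MRI1 nor APIP passed without time-0 replicate 1, where adjusted p values were between 0.255 and 0.351, and at 24 h both also failed without 24 h replicate 1 (0.118 for MRI1, 0.206 for APIP). At 12 h APIP further failed after correction for GC content and length (0.073) and without 12 h replicate 3 (0.0848). The other gene that passed, MAT2B, a regulatory subunit of methionine adenosyltransferase that was singled out after its values were seen, had log2 changes of -0.23 and -0.17 (adjusted p 0.0049 and 0.037), its 24 h call being lost under 9 of 17 alternatives and its 12 h call after correction for GC content and length (0.0709). MTAP, which splits methylthioadenosine, had a log2 change of 0.04 at 24 h and did not pass (adjusted p 0.732).

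Among genes of ornithine, arginine and proline metabolism 4 of 15 tested (26.7%) passed at 12 h, 2 higher and 2 lower. At 24 h 6 (40%) passed, 3 higher and 3 lower, where 11.6% of all genes passed at 12 h and 16.3% at 24 h. SLC7A1, the main importer of arginine and ornithine, fell from 504.2 CPM at 0 h to 440.2 and 400.7 CPM (log2 changes -0.20 and -0.33, adjusted p 0.00313 and 1.51e-06). GAMT, the last enzyme of creatine synthesis, rose from 68 to 83 and 83.3 CPM (0.29 and 0.29, adjusted p 0.000448 and 0.000181), and PYCR3, which reduces the ornithine-derived proline precursor, rose from 50.8 to 62.1 and 61.5 CPM (0.29 and 0.28, adjusted p 0.00113 and 0.00109). Without time-0 replicate 1, PYCR3 passed neither at 12 h (0.193) nor at 24 h (0.191), GAMT did not pass at 12 h (0.0519), and without the 0 h library that carries no replicate number SLC7A1 did not pass at 12 h (0.0602). Further genes that passed, singled out after their values were seen, were NOS3, a nitric oxide synthase that uses arginine (log2 changes -0.68 and -0.75, from 3.23 to 2.02 and 1.93 CPM), and, at 24 h only, the ornithine aminotransferase OAT (-0.44) and the cationic amino acid transporter SLC7A2 (0.23). NOS3 lost its 12 h call without the 0 h library that carries no replicate number (0.0657), and OAT its 24 h call without time-0 replicate 1 (0.156) or 24 h replicate 2 (0.0505). ALDH18A1 and PYCR1 of proline synthesis did not pass.

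Of 14 tested transcription factors with a known link to polyamine genes, 7 (50%) passed at 12 h, 3 higher and 4 lower. At 24 h 5 (35.7%) passed, 2 higher and 3 lower, beside 11.6% of all genes at 12 h and 16.3% at 24 h. ATF3, a stress-induced factor of the CREB and ATF family, stood at 123.3 and 105.8 CPM at 0 h, 82.6, 75.5 and 84.5 CPM at 12 h, and 65.3, 71.5 and 66.8 CPM at 24 h. Its 3 groups did not overlap, and the log2 changes were -0.50 (SE 0.058, adjusted p 5.72e-07) and -0.76 (SE 0.058, adjusted p 6.21e-11), the latter a fold change above 1.5. SP1, which binds GC boxes, fell from 113.3 CPM to 99.5 and 91.3 CPM (log2 changes -0.19 and -0.31, adjusted p 0.0102 and 1.76e-05), and NFE2L2, an oxidative stress factor linked to SAT1, from 86.4 CPM to 74.9 and 76 CPM (-0.21 and -0.19, adjusted p 0.00555 and 0.00852). NFE2L2 shares 23.4% of its exon bases with the abundant HNRNPA3 on the other strand and lost both calls without time-0 replicate 1 (0.169 and 0.155) and that at 24 h without 24 h replicate 1 (0.0592). SP1 lost its 12 h call without time-0 replicate 1 (0.111) or 12 h replicate 1 (0.0544). Genes named after their values were seen were JUN (-0.22 at 12 h, adjusted p 0.00451, and -0.031 at 24 h) and MXD3 (0.36 at 12 h, adjusted p 0.0434, lost under 4 of 17 alternatives). Without time-0 replicate 1 the 12 h call of JUN was lost (0.0915). MXD3 shares 24.2% of its exon bases with PRELID1.

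**Figure D4:**
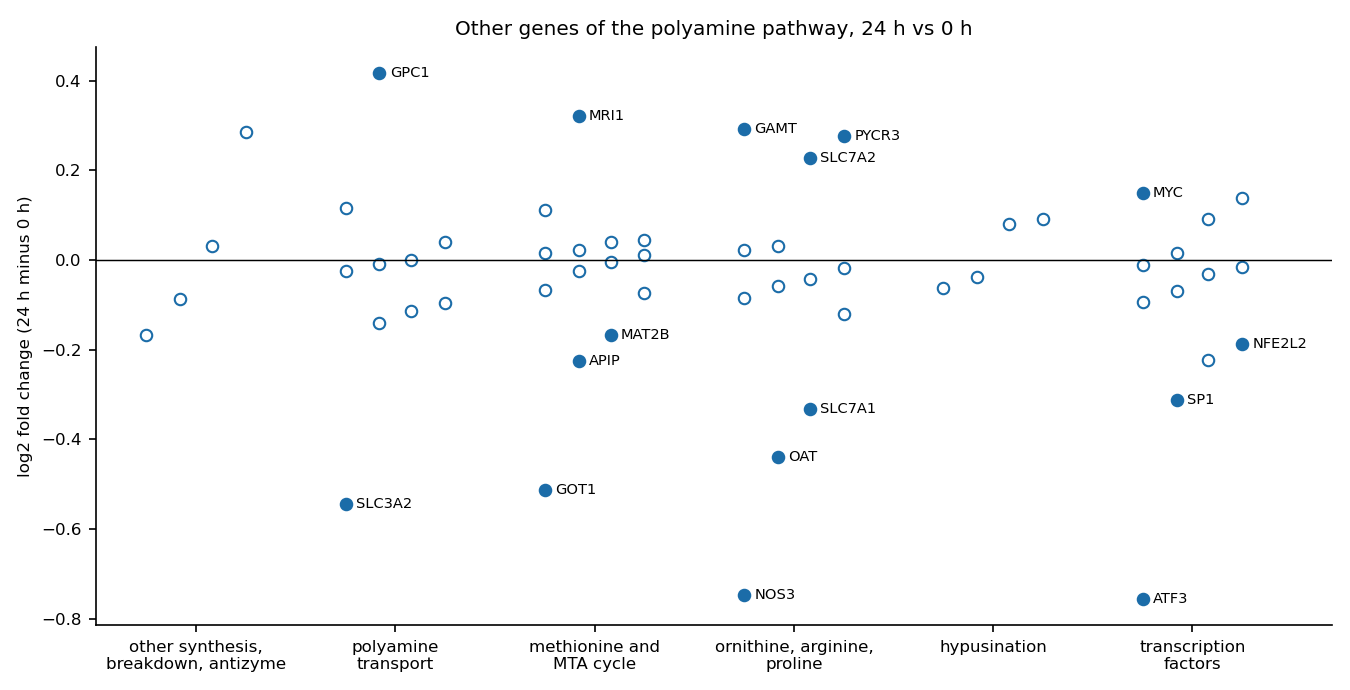
Log2 fold change at 24 h against 0 h (vertical axis) for 58 other pathway genes whose normalized counts averaged 100 or more, by list (horizontal axis); filled, named points (16) passed an adjusted p of 0.05 by edgeR and open points did not. ATF3 (-0.76), NOS3 (-0.75), SLC3A2 (-0.54) and GOT1 (-0.51) lie lowest and GPC1 (0.42) highest, with no filled point in the lists of other synthesis, breakdown and antizyme genes and of hypusination.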

How the data were processed

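RNA was sequenced from 8 libraries of LNCaP cells (TruSeq mRNA, paired ends). The deposited table holds whole-number counts of reads for each gene, not normalized. By the study's methods, the authors trimmed reads with Cutadapt, aligned them to GRCh38 with STAR and counted them per GENCODE gene with featureCounts, and left out a time-0 library for quality. Strand, pair and multi-mapping options were not stated, so overlapping genes and near-identical copies can share reads. Groups were taken from the times in the labels. The second time-0 column carries a number that no time-0 label has and was used as a library without a replicate number.

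Counts were tested in R 4.3.3 with edgeR 4.0.16 (TMM, filterByExpr, robust glmQLFit and glmQLFTest), with 1 coefficient per time over all 8 libraries, and p-values were Benjamini-Hochberg adjusted over 21071 genes. The biological coefficient of variation was 5.59%. CPM are TMM-normalized. Intervals are 95% intervals of the fit. A count of 0 allows up to 0.0309 to 0.0409 CPM per library, taking 3 counts as the limit and covering counting error only. Pairs of libraries within a group differed beyond sampling noise (chi-square per degree of freedom 5.33 to 15.3), so each was counted once. The procedure was tested on simulated counts.

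The members, lists, motifs and tests were chosen with earlier results of these data known. All members are named, and of each list up to 3 genes with the smallest adjusted p at 24 h against 0 h, among those past 0.05 in any comparison whose normalized counts averaged 100 or more. The 3 genes most correlated with SAT1 and with ODC1 were also named. Gene coordinates are those of the table, gene overlaps and lengths came from GENCODE release 44, and promoter windows came from RefSeq (GRCh38.p14). Windows of SMOX and AZIN1 were not used here, and 1 gene of the lists is counted but not reported here. Alternatives were DESeq2 1.42.0, scaling by RLE or by the upper quartile, testing all genes or those averaging 100 normalized counts, fitting only the compared times, protein-coding genes alone, correction for GC content and transcript length (99.8% of tested genes had both), a replicate block, leaving out each library, and other call rules.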

Additional observations from a re-analysis of the deposited data

Results flagged for a closer look

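Among the members and the named pathway genes, 6 differed between the 12 h and the 24 h effects. The test was the contrast of the 24 h and 12 h libraries in the edgeR fit, with Benjamini-Hochberg adjustment over all genes. They were 1 of 10 members and 5 of 65 other pathway genes tested, beside 2.72% of all genes. Most pathway genes were named for passing in some comparison or after their values were seen, so the count of 6 does not measure how often such genes differ. Of the members only SAT1 differed, and its level fell further between 12 h and 24 h (log2 difference -0.195, adjusted p 0.0107). Of the other pathway genes, SLC3A2 (-0.179, adjusted p 0.0111), GOT1 (-0.15, adjusted p 0.0474) and ATF3 (-0.252, adjusted p 0.00556) also fell further, and GPC1 rose further (0.231, adjusted p 0.0129). JUN moved back towards its 0 h level, with a difference of 0.192 (adjusted p 0.0198) after its fall at 12 h. The number of these 5 pathway calls lost was 5 without 24 h replicate 3, 4 without 12 h replicate 3, and 3 without 24 h replicate 1 or 24 h replicate 2. JUN also failed without 12 h replicate 2 (0.113), and GOT1 without 12 h replicate 1 (0.0789) and with a replicate block by column number (0.096). Calls of SAT1 lost in the same way are given with its values.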

How the results depend on the processing

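Calls at 12 h were most often lost without time-0 replicate 1, a fit in which fewer of all genes passed as well. Calls between the later times were most often lost without 12 h replicate 3 or one of the 24 h replicates. Leaving out either 0 h library leaves 1, which is then assumed to vary like the other groups. The 4 calls of members at 24 h against 0 h held under all 17 alternatives, with the largest adjusted p at 0.0372. Under a rule of 1.5-fold with adjusted p the member counts became 0, 0 and 0 for 12 h against 0 h, 24 h against 0 h and 24 h against 12 h, and at an adjusted p of 0.01 they were 1 at 12 h and 0 between the later times. Between the later times the count of 1 became 2 after correction for GC content and length, and ran from 0 to 3 as each library was left out (3 without 12 h replicate 2, and 0 without 12 h replicate 3 or any of the 24 h replicates). For the other pathway genes, leaving out each library gave 7 to 17 calls at 12 h, 10 to 19 at 24 h and 0 to 7 between the later times.

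Deviations of same-numbered 12 h and 24 h libraries correlated at 0.101, 0.027 and 0.0292, and those of differently numbered ones at -0.0774 to 0.0521. The highest of the latter was that of 12 h replicate 2 with 24 h replicate 3. With 3 libraries in each group, these values cannot decide whether replicate numbers pair the libraries. With the replicate number as a block in the 12 h and 24 h libraries, 3 members passed instead of 1, AMD1 (adjusted p 0.0379) and AZIN1 (0.0389) being added to SAT1. A block by column number ended the calls of SAT1 at 12 h (adjusted p 0.0653), MYC at 24 h (0.052) and GOT1 between the later times (0.096).

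Of the recomputed member changes, 461 kept direction and call, 11 lost the call, 17 gained it and 31 changed sign. All sign changes were of values that had not passed as reported. Correction for GC content and length turned SRM at 12 h to -0.0997, OAZ1 to -0.0961 at 12 h and -0.0959 at 24 h, and OAZ2 at 12 h to -0.00374, and the block by column number turned AZIN1 at 24 h to -0.0328. From 12 h to 24 h, OAZ1 (0.0021) became -0.00103 (RLE), -0.0054 (upper quartile), -0.00201 (no filter), -0.0068 (mean of at least 100), -0.000957 (2 time points alone), -0.00866 (protein-coding), -0.000735 (block) and -0.000724 (DESeq2). Leaving out each library at 12 h gave -0.0653 to 0.121 for SRM, -0.0166 to 0.0443 for OAZ1 and -0.0275 to 0.047 for OAZ2. At 24 h it gave -0.113 to 0.0724 for SRM, -0.0188 to 0.0409 for OAZ1 and -0.0539 to 0.0618 for AZIN1. Between the later times it gave -0.00994 to 0.0573 for SMS, -0.0472 to 0.0297 for ARG2 and -0.0183 to 0.0159 for OAZ1. The place of SAT1 among the members per kilobase, 7, was 5 with the longest transcript, a choice added after the data were seen. The cause of these shifts was not tested.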
